A study of Mus musculus with 5 samples.

Results

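The contacts described here are those between the mouse *Shh* gene with its promoter and the DNA just upstream of it. They were measured by 5C, chromosome conformation capture carbon copy, in which cross-linked chromatin is cut with HindIII and religated, and the junctions are read with forward and reverse primers, each specific for 1 restriction fragment. A primer pair was a member if both of its fragments were in the assayed *Shh* region, the midpoint of 1 fragment was on chr5:28765087-28821086 (mm9) and the midpoint of the other was on chr5:28821087-29157086. This gave 300 of the 33306 primer pairs of the series, and 300 of the 31328 within the *Shh* region. The former interval of 56 kb holds 10 measured fragments, called bait fragments here, and the latter, of 336 kb, holds 60, called flank fragments. Since a read needs 1 forward and 1 reverse primer, the 5 forward bait fragments were measured against the 30 reverse flank fragments and the 5 reverse bait fragments against the 30 forward ones, which makes 30 pairs per bait fragment and 5 per flank fragment.

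All samples were CD1 mouse embryos at E11.5, and the labels name no transgene or treatment. Limb was whole fore- and hindlimb buds, with 2 biological replicates. Body was embryos from which limbs and heads had been taken off, with 1 library, and head was embryonic heads, 1 sample with 2 technical libraries, which were summed. Each sample pools several embryos and all cell types of the tissue, so cells that transcribe *Shh* could not be told apart from those that do not.

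*Shh* encodes Sonic hedgehog, a secreted signal that patterns the limb, the neural tube and the face. Its enhancers are spread over a gene desert upstream of the promoter and at the far end of that desert. The ZRS, in an intron of *Lmbr1* at the far end, drives it in the zone of polarising activity (ZPA) at the posterior edge of the limb bud. Others, such as SBE4 in the forebrain, act in the head. The flank analysed here is the part of that desert nearest the gene. It stops short of the ZRS, and SBE4 was placed by eye in window 11 of its 12 windows of 28 kb from the map of the study, so a neighbouring window is possible. Window 11 is called the SBE4 window here. In 5C, contacts fall with distance along the chromosome whatever the locus, so a count has meaning only beside other pairs at the same separation.

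The annotation of the same build places *Shh* at chr5:28783355-28793641 on the minus strand (ENSMUSG00000002633.3, 3 exons), so its 5′ end faces the flank. The bait interval was divided at chr5:28793087 into 2 windows of 28 kb. The window that holds most of the gene, the gene window, has bait fragments 140, 143, 144, 145 and 147, numbered as in the deposited tables. The window upstream of it, the 5′-end window, has 149, 151, 152, 154 and 155. Fragments 145 and 147 carry exons of *Shh*, and 147 (chr5:28789547-28793709) carries its 5′ end. A long intergenic RNA gene on the opposite strand, 9530036O11Rik, runs through the whole flank. Of the 60 flank fragments, 56 lie in its introns and 4 (180, 212, 213 and 226) hold an exon of it. The annotation also lists Gm10290, a protein-coding gene within the flank (chr5:28865060-28866308). Another long intergenic RNA gene, Gm17493 (chr5:28792914-28807513), has exons on bait fragments 147 and 155.

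The promoter is cut by the assay's own enzyme. The 300 bases upstream of the *Shh* 5′ end (mm9, chr5:28793642-28793941, minus strand, 5′ to 3′ in the direction of transcription) are shown because they hold this site. The HindIII recognition sequence is in capitals.

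*Shh* upstream sequence: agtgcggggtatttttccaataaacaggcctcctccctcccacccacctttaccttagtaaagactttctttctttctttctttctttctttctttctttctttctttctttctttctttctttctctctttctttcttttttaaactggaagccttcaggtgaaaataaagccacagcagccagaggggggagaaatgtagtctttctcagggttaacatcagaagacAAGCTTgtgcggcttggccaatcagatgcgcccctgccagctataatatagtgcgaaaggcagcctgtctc

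The site starts 66 bases upstream of the 5′ end, so fragment 147 holds only 68 bases upstream of the start. The next 348 bases (chr5:28793710-28794057) are on a fragment for which no primer was listed, and the next measured fragment, 149, begins beyond them. The values given for the promoter are therefore those of a fragment that lies almost wholly within the gene and of neighbours further upstream.

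The last 60 bases of 3 fragments, up to and including the HindIII site (plus strand, site in capitals), show 1 of the 2 ends of a fragment that can be ligated. Bait fragment 147 carries the *Shh* start, and 152 had the highest level of the forward bait fragments. Flank fragment 247 lies in the SBE4 window and had one of the highest values along the flank when ranked by the lowest of the 4 samples. Both rankings rest on values before any correction for primers. The primer sequences themselves were not analysed here, so the end that each primer reads is not known, and the right end is shown because the distances in the deposited tables are counted between right ends.

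Bait fragment 147, chr5:28793653-28793712: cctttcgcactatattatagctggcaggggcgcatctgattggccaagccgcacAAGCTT
Bait fragment 152, chr5:28801490-28801549: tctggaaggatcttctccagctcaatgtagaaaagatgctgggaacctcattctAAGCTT
Flank fragment 247, chr5:29117140-29117199: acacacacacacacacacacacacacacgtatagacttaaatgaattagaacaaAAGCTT

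The 30 bases before the site were 66.7% G or C in fragment 147 and 40% in fragment 152. They were 26.7% in fragment 247.

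The member pairs took 0.591% and 0.533% of all reads in limb, 0.603% and 0.486% in the head libraries and 0.529% in body. Limb thus gave 3992 and 9134 member reads, head 6328 and 4523 and body 5585, of library totals between 675954 and 1714491. The interaction frequency (the reads of a pair per 1000 reads of the whole library), averaged over the 300 pairs, was 0.0187 ± 0.00136 in limb (SD, n = 2), with body at 0.0176 and head at 0.0183. Body and head lay within 1 SD of the limb mean when all reads were counted. These totals include isolated contacts, described below, which took a far larger share of the reads in limb than in body. The same bait fragments joined to the *Usp22* control region on another chromosome gave 0.000888 and 0.000615 in limb and 0.000503 and 0.00174 in head, with 6.89e-05 in body, so the mean member level was between 9.32 and 256 times this background. The body background, and with it the value of 256, rests on 4 reads over 55 pairs. The other libraries had between 29 and 89 such reads, and there the member level was at most 40.0 times the background.

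Single pairs were poorly replicated. Between the limb replicates Spearman's rank correlation over the 300 pairs was 0.468, lower than the 0.598 and 0.616 of either replicate with body. Between the head libraries, which are technical repeats, it was 0.279 (the pairs share fragments, primers and depth, and are not independent). In head, 65 of the 300 pairs had at least 20 reads in 1 library and none in the other, and 135 pairs were unread in the second library. In limb this was so for 29 pairs. With 3 reads as the least that counts as detected, the floor for 1 pair was an interaction frequency of 0.00444 in the former limb replicate and 0.00175 in the latter. Values below are therefore given as means over fragments or windows, and head values rest on libraries that differ in this way.

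To compare pairs at unlike separations (18.3 to 389 kb), reads were divided by the mean of all *Shh*-region pairs in the same 14-kb bin of separation in the same sample. This ratio, observed over expected, is 1 for an average pair. Over the 300 member pairs its mean was 0.823 and 0.717 in the limb replicates, with body at 1.05 and head at 0.769. After every primer's total over the region was made equal and 11 isolated contacts were left out, it was 0.925, 0.971, 1.08 and 1.06. Values corrected in both of these ways are called corrected values here, and values balanced alone are named as such. The isolated contacts, single pairs far above their neighbours, took 12.8% and 7.58% of the reads in limb. They took 5.45% and 16.5% in the head libraries and only 0.138% in body. Their reads are part of the library totals and of the uncorrected expected values. None of the isolated contacts was a member, and 1 of them used a bait fragment, 140.

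Bait fragments differed among themselves by far more than the tissues did. Fragment 147, which holds the start of *Shh*, was at 0.497 and 0.200 in limb, with body at 0.180 and head at 0.229. Fragment 144, which lies just beyond the 3′ end of the gene, was at 0.258 and 0.165 in limb, with body at 0.175 and head at 0.192. Fragment 155, in the upstream window, was at 0.172 and 0.0901 in limb, with body at 0.182 and head at 0.128. These 3, all forward fragments, were below each of the other 7 in every sample.

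Before correction the highest forward fragment was 152, 6.78 kb upstream of the start. It was at 1.21 and 1.24 in limb, with body at 1.35 and head at 1.495. In interaction frequency it was at 0.0322 and 0.0344 in limb, with body at 0.0260 and head at 0.0360. Fragment 147 was at 0.0105 and 0.00467 in limb, with body at 0.00284 and head at 0.00589 on that scale. Before correction the fragment with the *Shh* start was thus the lower of this pair in all 4 samples, although both face the same 30 flank fragments. As corrected values, 152 was at 0.823 and 1.10 in limb, with body at 0.838 and head at 1.39. Fragment 147 was then at 1.33 and 1.05 in limb, with body at 1.14 and head at 1.05. After correction 147 was thus the lower only in limb replicate 2 and head.

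Fragment 145, which holds the 3′ end of the gene, was at 0.950 and 0.936 in limb, with body at 1.76 and head at 0.891. Fragment 143, downstream of the gene, was at 1.19 and 0.949 in limb, with body at 2.15 and head at 0.844. In both of these reverse fragments body was above the other 3 samples, which lay between 0.844 and 1.19. Fragment 140, at the far edge of the gene window, was at 0.659 and 0.922 in limb, with body at 1.16 and head at 0.968. The reverse fragments upstream of the start were close to 1: 149 ranged from 0.915 to 1.24, 151 from 0.777 to 1.18 and 154 from 0.886 to 1.23 over the 4 samples.

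The low level of these 3 fragments was not particular to the upstream flank. Towards the 336 kb on the other side of the interval, which starts at the 3′ side of *Shh*, fragment 147 was at 0.477 and 0.268 in limb, with body at 0.216 and head at 0.335. Fragments 144 and 155 were between 0.133 and 0.357 and between 0.0670 and 0.160 there. As corrected values, fragment 147 stood at 1.33 and 1.05 in limb, with body at 1.14 and head at 1.05, and balancing alone gave 1.36 and 1.06 in limb, with body at 1.14 and head at 1.05. The corrected values of fragment 144 were 1.36 and 1.34 in limb, with body at 0.630 and head at 1.09, and fragment 155 between 0.567 and 0.844. Primer efficiency and a low contact frequency with the whole region cannot be told apart in these counts.

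**Figure D1:**
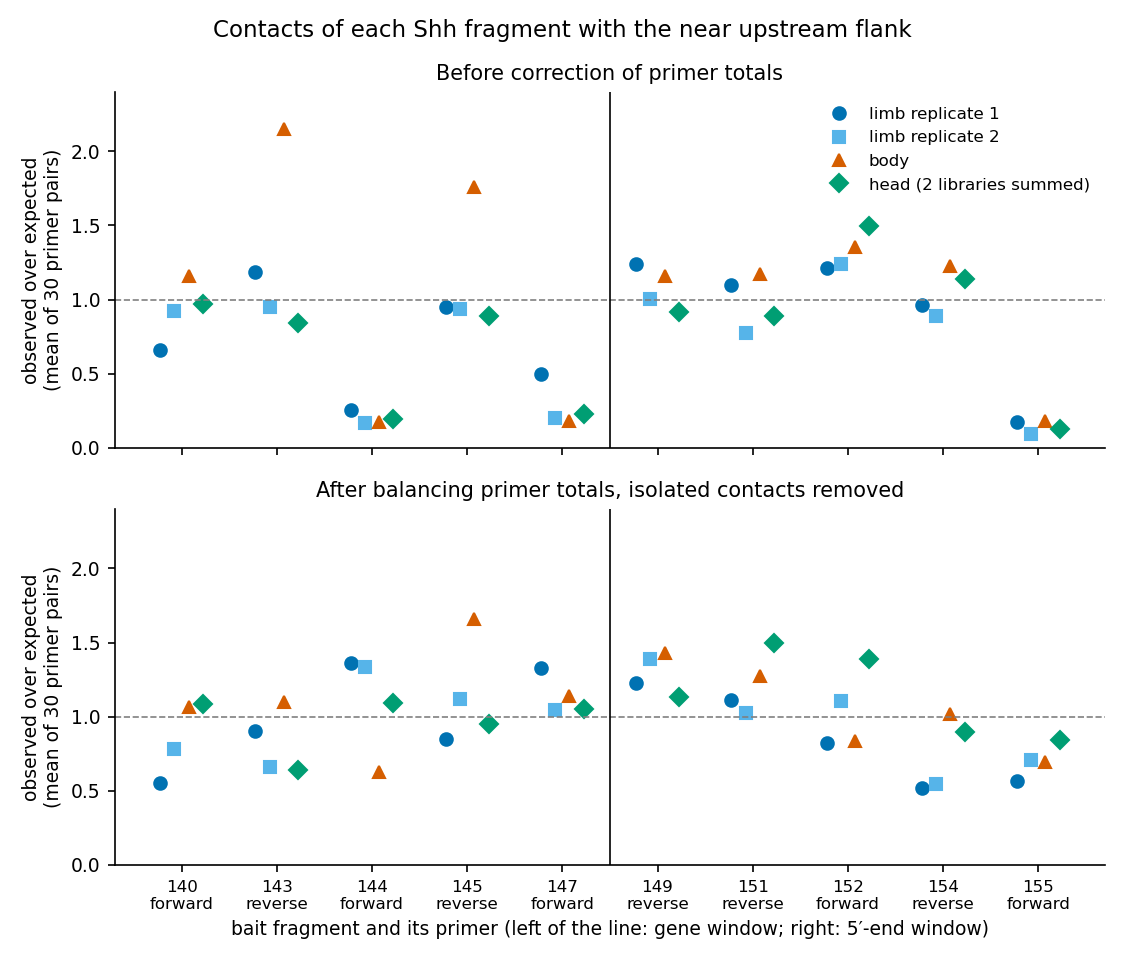
Mean observed over expected (vertical axis, no unit) of each of the 10 bait fragments with its 30 flank fragments, before (top) and after (bottom) primer totals were balanced and isolated contacts removed. Each point is 1 sample, and the vertical line separates the gene window from the 5′-end window. In the top panel fragments 144, 147 and 155 sit at or below 0.497 in every sample, and in the bottom panel fragment 147 is above 1 in all 4.

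The 5′-end window had the higher mean in limb and head and the lower in body. Its observed over expected was 0.936 and 0.800 in limb, with body at 1.02 and head at 0.913, and that of the gene window was 0.710 and 0.634 in limb, with body at 1.09 and head at 0.625. The ratio of the 5′-end window to the gene window was 1.32 and 1.26 in limb (1.29 ± 0.0413, SD, n = 2), with body at 0.939 and head at 1.46. Over the 4 samples an exact two-sided sign-flip permutation of the log2 ratio gave p = 0.25 (0.375 after Benjamini-Hochberg adjustment over 9 measures of this kind), and the smallest p that 4 samples allow is 0.125.

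The ratio depended on which fragments carried it. Over forward bait fragments alone it was 1.47 and 1.55 in limb, with body at 1.52 and head at 1.75, above 1 in 4 of 4 samples (exact p = 0.125, adjusted 0.225). Over reverse bait fragments alone it was 1.03 and 0.943 in limb, with body at 0.607 and head at 1.13 (exact p = 0.75). With balanced primer totals alone it was 0.930 and 1.07 in limb, with body at 0.953 and head at 1.44 (exact p = 0.75). With isolated contacts removed too it was 0.850 and 0.966 in limb, with body at 0.939 and head at 1.20 (exact p = 0.75). The body ratio below 1 came from the reverse fragments 143 and 145 of the gene window, whose joint mean was 1.95 in body, against 1.07 and 0.943 in limb and 0.867 in head.

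Along the flank the observed over expected was higher farther from *Shh*. It was 0.634 and 0.555 in limb, with body at 0.661 and head at 0.572 over the first 6 flank windows, and 0.949 and 0.825 in limb, with body at 1.31 and head at 0.900 over the last 6. The farther part was 1.497 and 1.49 times the nearer in limb, with body being 1.99 and head 1.57 times, and 1.78, 1.28, 1.49 and 1.49 times in corrected values (exact p = 0.125 for both, the smallest possible, adjusted 0.225). Interaction frequency itself ran the other way, from 0.0225 ± 0.00159 in the nearer to 0.0162 ± 0.001215 in the farther part in limb (SD, n = 2), from 0.0202 to 0.0159 in body and from 0.0207 to 0.0166 in head. The decline with distance was thus less steep than for the region as a whole in all 4 samples.

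The bait fragments were also compared with the flank of equal length on their other side. Mean interaction frequencies differed little, the upstream flank being 1.03 and 0.969 times the other in limb, with body being 1.01 and head 1.05 times (exact p = 0.5). In observed over expected the upstream flank was 1.28 and 1.23 times the other in limb, with body being 1.60 and head 1.25 times, and 1.27, 1.59, 1.66 and 1.505 times in corrected values (exact p = 0.125 for both, adjusted 0.225). It was thus the higher in 4 of 4 samples once separation was allowed for, at the smallest p the design can give. Balancing alone left both the farther part above the nearer (1.27 to 1.79 times) and the upstream flank above the other (1.35 to 1.698 times) in all 4 samples.

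No flank fragment formed a peak in every sample. The rule asked for a mean observed over expected of at least 2, over the 5 pairs of a flank fragment, in each of the 4 samples, and 0 of 60 met it. Within single samples the threshold was reached by 2 fragments in limb replicate 1, by 1 in limb replicate 2, by 7 in body and by 1 in head. At a threshold of 1.5 in each sample 1 fragment, 254, qualified. Corrected values gave 2 at that threshold, 254 and the reverse fragment 213 (3.21 and 1.57 in limb, with body at 2.71 and head at 1.81), and balancing alone gave 254 and 241. The fragments named next were chosen after their values were seen.

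Fragment 254 (chr5:29137043-29154044), 352 kb upstream of the start, was at 2.50 and 1.55 in limb, with body at 5.22 and head at 2.67. At 17002 bp it is the longest flank fragment. Its corrected values were 1.65 and 1.51 in limb, with body at 2.70 and head at 2.66. Its strongest pair, with bait fragment 145, had 32 and 20 reads in limb, 108 and 59 in the head libraries and 90 in body.

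Fragment 247 (chr5:29113253-29117196), in the SBE4 window, was at 1.90 and 2.00 in limb, with body at 4.25 and head at 1.41. Its pair with bait fragment 145 had 19 and 56 reads in limb and 78 in body, and none in either head library. Fragment 238, 288 kb upstream, was the most even, at 1.52 and 1.40 in limb, with body at 1.30 and head at 1.47. Fragment 234, 271 kb upstream, was at 2.92 and 1.29 in limb, with body at 4.37 and head at 1.63, and 245, also in the SBE4 window, at 1.23 and 1.70 in limb, with body at 2.95 and head at 1.38. Body was the highest sample for 4 of these 5 fragments and the lowest for 238. Balanced alone, 247 was at 1.10 and 1.11 in limb, with body at 2.07 and head at 0.804. Fragment 238 was then at 1.05 and 0.915 in limb, with body at 0.672 and head at 1.12. Fragment 234 was at 1.51 and 0.799 in limb, with body at 2.16 and head at 0.870. Fragment 245 was at 0.679 and 0.953 in limb, with body at 1.33 and head at 0.888. Each of these 4 was thus below 1 in at least 1 sample.

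These 5 are forward fragments, read against the reverse bait fragments. The 30 forward flank fragments had a mean of 1.09 and 0.910 in limb, with body at 1.49 and head at 0.936, against 0.559 and 0.524 in limb, with body at 0.610 and head at 0.602 for the 30 reverse ones. Because forward flank fragments were read only with reverse bait fragments, this difference is the same as that between reverse and forward bait fragments and cannot be assigned to either end. Across the forward flank fragments, values were lower where the 30 bases before the HindIII site held more G and C (Spearman's rho from -0.42 to -0.62 in the 4 samples, n = 30 fragments that share 5 baits). Across the 30 reverse ones rho had the opposite sign, from 0.10 to 0.23. In corrected values rho was between 0.00766 and 0.101 for the forward fragments, and balanced alone between -0.03 and 0.0748. For the reverse fragments it was between 0.075 and 0.403 in corrected values, and balanced alone between 0.0124 and 0.359. The 5C primer may lie at the other end of a fragment, whose bases were not examined. Longer fragments had higher values in body (rho of 0.58 among forward and 0.66 among reverse fragments), and in limb and head rho was between 0.16 and 0.48. The part of fragment length and base content in the values of 254, 247, 238, 234 and 245 was not tested.

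**Figure D2:**
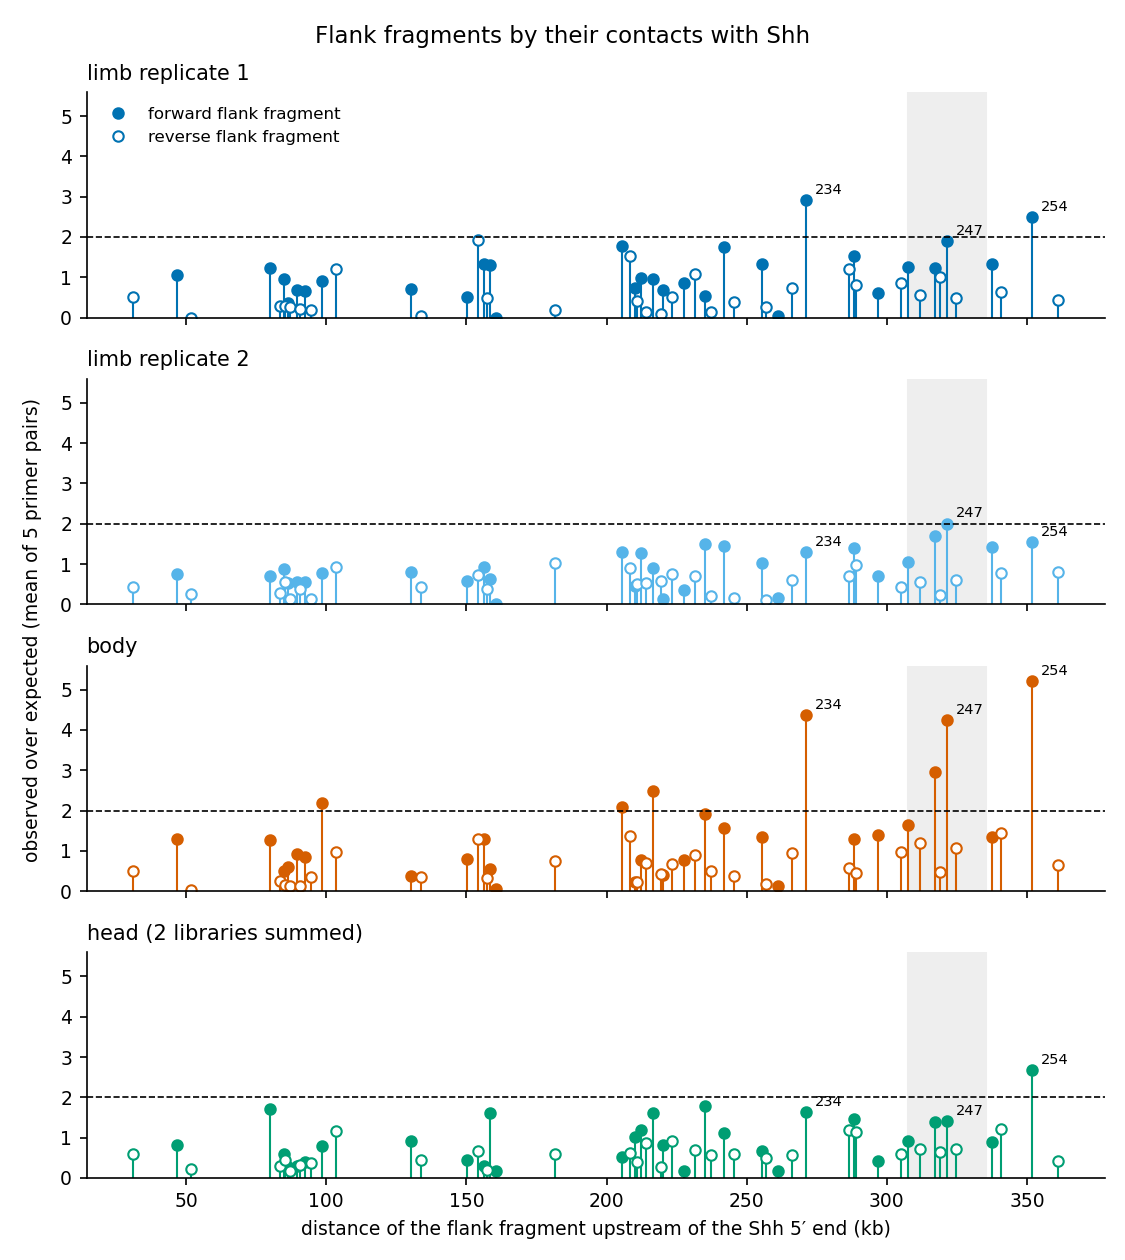
Mean observed over expected (vertical axis, no unit) of each of the 60 flank fragments with the bait fragments, against its distance upstream of the *Shh* 5′ end (kb). Filled points are forward and open points reverse fragments, the dashed line is the peak threshold of 2, and the grey band is the SBE4 window. Fragment 254 passes the line in limb replicate 1, body and head but not in limb replicate 2, and 234 and 247 are highest in body.

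The coverage of the flank was uneven. Measured fragments cover 57.2% of its length, with a largest gap of 24.4 kb at 106 to 130 kb upstream of the start, and flank windows 2, 4 and 6 were read through 5, 10 and 5 pairs only. Before correction the extremes of the window profile fell partly in these windows. From the gene window the highest observed over expected before correction, by the mean of the 3 tissues, was at flank window 2. It had 1.13 and 0.642 in limb, with body at 1.59 and head at 2.30, from 2 pairs. Next came window 12, with 1.19 and 0.551 in limb, with body at 2.38 and head at 0.902, and window 11. The lowest was window 3, with 0.383 and 0.390 in limb, with body at 0.554 and head at 0.312, from 28 pairs. As corrected values, window 2 was at 0.574 and 0.265 in limb, with body at 0.728 and head at 0.986. Window 10 was then at 2.58 and 2.13 in limb, with body at 1.72 and head at 1.82.

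From the 5′-end window the highest before correction was flank window 12, followed by windows 11 and 2. Window 12 had 1.26 and 1.72 in limb, with body at 1.95 and head at 1.70. The lowest was window 4, with 0.534 and 0.652 in limb, with body at 0.405 and head at 0.540. Before correction the same windows therefore led from both bait windows, and only in the 5′-end window were all 4 samples above 1, at window 12. In corrected values window 12 was at 0.988 and 1.59 in limb there, with body at 1.65 and head at 1.86. Window 10 was then above 1 in all 4 samples from both bait windows, and window 9 from the 5′-end window alone. From the 5′-end window, window 10 had 1.02 and 1.21 in limb, with body at 1.22 and head at 1.37.

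The SBE4 window, flank window 11 (chr5:29101087-29129086), was close to the average for its separation in limb and in the summed head sample. From both bait windows together it stood at 1.04 and 1.02 in limb, with body at 1.99 and head at 0.975, or 1.10, 0.935, 1.52 and 1.01 in corrected values. The head value is the sum of libraries that stood at 1.36 and 0.472, on either side of 1. In head its contacts came unevenly from the 2 sides. The gene window had an interaction frequency of 0.00668 (Wilson 95% interval 0.00576 to 0.00776, counting error only) and the 5′-end window 0.0229 (0.0211 to 0.0249), while in limb they were at 0.0159 ± 0.00121 and 0.0147 ± 0.000265 (SD, n = 2), and in body at 0.0214 and 0.0193. The head libraries gave 122 and 50 reads for the gene window and 443 and 102 for the 5′-end window, so the 5′-end window had more reads in both, by unlike margins.

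**Figure D3:**
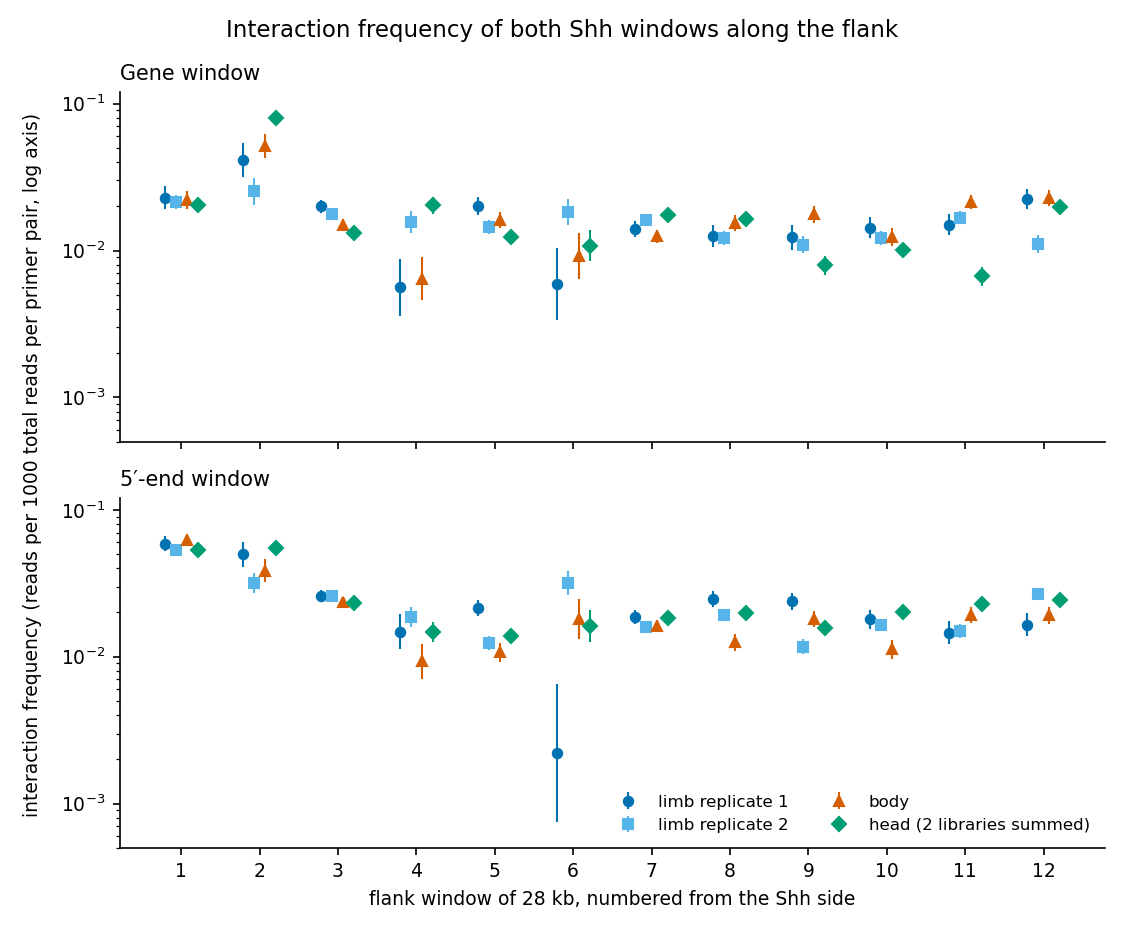
Interaction frequency (reads per 1000 total reads per primer pair, log axis) of the gene window (top) and the 5′-end window (bottom) with each of the 12 flank windows of 28 kb. Points are samples and bars are Wilson 95% intervals of the counts, which cover counting error only. At window 11 head is at 0.00668 from the gene window and 0.0229 from the 5′-end window, and in window 6 limb replicate 1 is far below replicate 2.

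The 5 pairs with the highest interaction frequency, by the mean of the 3 tissues, were mostly at short separations. Bait fragment 152 with flank fragment 158, 24.2 kb apart, had 97 and 252 reads in limb, 223 and 50 in the head libraries and 159 in body. Its observed over expected was 1.24, 1.16, 1.08 and 1.22, so it was close to the average for its separation. The pair of 152 with 181, 96.8 kb apart, had 87 and 206 reads in limb, 81 in body and 95 and 89 in head, at 3.52, 3.04, 2.39 and 2.66 times its expectation. It was thus above 2 in every sample, but at 1.58, 1.30, 0.826 and 1.10 in corrected values. Bait fragments 149 and 151 with flank fragment 162 followed, and the fifth was 145 with 254, 359 kb apart.

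Limb, body and head were compared by edgeR's quasi-likelihood test on the reads of all window pairs of the region, of which 24 are members (both bait windows with the 12 flank windows). In limb against body and head together, 0 of the 24 had an adjusted p under 0.05, beside a background of 0% (0 of 1874 window pairs). At an unadjusted p under 0.05 there were 0 of 24 and 41 of 1874 (2.19%). DESeq2 called 0 window pairs as well. The log2 fold changes of the members were between -1.12 and 0.33, with a median of -0.14, against -0.02 for all window pairs.

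In limb against body, 0 of 24 members were called, beside a background of 4.84% (91 of 1881, of which 18 were higher and 73 lower in limb). With library totals in place of TMM the calls were 88, of which 52 were higher and 36 lower. This scaling raised the median of all window pairs from 0.06 to 0.45 and that of the members from -0.29 to 0.09, so the sign of the member median depends on the scaling, while under both it was below that of all window pairs. The lowest member values were those of the gene window with flank window 2 (-1.01 ± 0.58, SE), window 9 (-0.98 ± 0.44, edgeR adjusted p = 0.407), window 12 (-0.84 ± 0.52) and window 11 (-0.82 ± 0.39, adjusted p = 0.445). Of the 24 members 18 were below 0 with TMM, but 9 with library totals. With TMM 0 had an unadjusted p under 0.05 by edgeR, beside 12.9% of all window pairs.

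Each bait fragment was also summed over the whole flank. In limb against body, log2 fold changes were -0.73 ± 0.24 (SE) for fragment 143 (edgeR adjusted p = 0.151), -0.56 ± 0.20 for 145 (adjusted p = 0.169) and -0.55 ± 0.20 for 154 (adjusted p = 0.192). Of the 10 bait totals 0 passed the test, beside a background of 10.7% (224 of 2102 sums of a fragment over blocks of windows), and these 3 had an unadjusted p under 0.05, as did 24.8% of all such sums. Fragment 147, with the *Shh* start, had 0.98 ± 0.65 (adjusted p = 0.451), from 213 and 240 reads in limb against 90 in body. In observed over expected, limb replicate 2, at 0.200, was close to body, at 0.180, and only limb replicate 1, at 0.497, stood apart.

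In limb against head, 0 of 24 members were called, beside a background of 0% (0 of 1881; 112, or 5.95%, at an unadjusted p under 0.05, and 4 by DESeq2, none a member). The gene window with flank window 11 had the only member value with an unadjusted p under 0.05, at 1.29 ± 0.43 (SE, edgeR adjusted p = 0.780), higher in limb. The 5′-end window with the same flank window was at -0.60 ± 0.38 (adjusted p = 0.813). The difference between these 2 values was not tested. The value of the gene window was 1.85 ± 0.47 (adjusted p = 0.0913) without head replicate 1 and 0.95 ± 0.42 (adjusted p = 0.484) without head replicate 2. That of the 5′-end window turned from -1.14 ± 0.36 without head replicate 2 to 0.60 ± 0.44 without head replicate 1, so its direction depends on the head library. In both comparisons the residual spread comes from the 2 limb replicates alone, and body and head were assumed to vary as limb does.

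**Figure D4:**
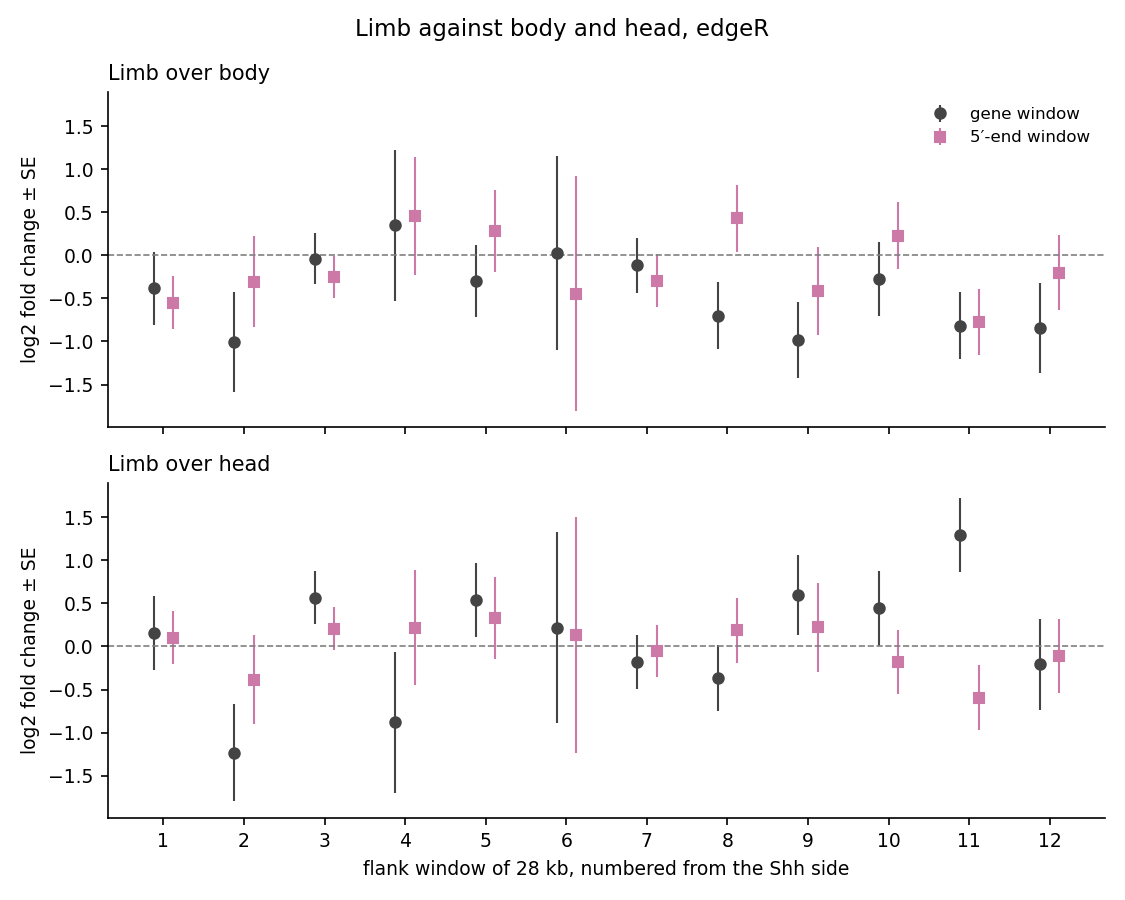
Log2 fold change of limb over body (top) and limb over head (bottom) for the 24 window pairs, by edgeR, with SE bars. Dark circles are the gene window and pink squares the 5′-end window, against the number of the flank window. None passes an adjusted p of 0.05. In the top panel 18 of 24 values are below 0, a count that was 9 with library totals in place of TMM. In the bottom panel the gene window at flank window 11 stands at 1.29.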

How the data were processed

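5C libraries of E11.5 CD1 limb buds (2 biological replicates), bodies (1 library) and heads (2 technical libraries of 1 sample) were analysed. The authors sequenced on an Ion PGM and used a Torrent 5C pipeline in Galaxy. What they deposited is the raw count of each primer pair, with fragment coordinates on mm9. The version of the pipeline is not given in the sources used here. Library totals were 675954, 1714491, 1056071, 1048682 and 931061 reads. The deposited counts were divided by the sum of the counts of the library and multiplied by 1000, whereas the authors divided by the reads of the sequence run. PCR reads without molecular identifiers are not independent, so the intervals, and the floor set at 3 reads, hold for counting error alone.

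Expected values were means of all *Shh*-region primer pairs in bins of 14 kb between fragment midpoints. Balancing divided counts by primer totals in 200 iterations, which takes up part of a true difference between fragments too. A contact was isolated if, in 2 or more libraries, it held 100 reads or more and reached 20 times the highest of its neighbours (2 primers either way) at a separation of 84 kb or more. Window pairs (28 kb) were tested with the quasi-likelihood test of edgeR 4.0.16 after TMM and filterByExpr (R 4.3.3), or as an alternative DESeq2 1.42.0, at a Benjamini-Hochberg adjusted p of 0.05 over all window pairs. Measures and fits were also run on simulated data, whose outcome is not reported here. With 2 limb replicates and 1 sample each of body and head, the absence of a call does not show that a contact is unchanged. Other steps used scipy 1.17.1, pandas 2.3.3, numpy 2.4.6 and matplotlib 3.10.9 under Python 3.11.15, with the NCBIM37 (mm9) sequence and the GENCODE annotation of that build. RefSeq promoter sequences, on another build, were not used.

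Named in the text were all bait fragments, the 3 highest and the lowest flank windows from each bait window before correction, flank fragments that met the peak rule (none did, so 5 were named after their values were seen), the 5 primer pairs with the highest interaction frequency, *Shh* and the SBE4 window. Flank windows 9 and 10 were added for their corrected values, after these were seen. The members, lists and tests were chosen with earlier results of these data known. The alternatives were bins of 7 and 28 kb, a cap at the 99th percentile, balanced primers, medians, isolated contacts removed, other denominators, other peak thresholds, another division of the bait fragments, matched separations, and each replicated library left out. The body library was left out only where limb was set against body and head together. Forward or reverse bait fragments alone, balancing with isolated contacts removed, balancing alone for fragments and flank parts, and sums of each fragment over blocks of 12 windows were added after the data were seen.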

Additional observations from a re-analysis of the deposited data

Results flagged for a closer look

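The ratio of the 5′-end window to the gene window ran opposite ways in limb and body. It was 1.32 and 1.26 in the limb replicates and 0.939 in the single body library, and 1.46 in head. It is listed because both limb replicates lay above 1 and body below it. The difference between the tissues was not tested, since body is 1 library. With balanced primers and isolated contacts removed, limb was at 0.850 and 0.966, on the same side of 1 as body at 0.939.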

How the results depend on the processing

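Of 157 values recomputed under an alternative, 113 kept their place and 42 moved, by a rule that differed between kinds of value. Observed over expected and ratios were judged by the SD of the limb or head libraries, with the limb SD used for body. Interaction frequency was judged by the limb SD in limb and by the Wilson interval in body and head. A peak count moved on any change, and a call count beyond a set fold change. For the tested mean log2 ratio of the bait windows, judged by its sign alone, 2 changed sign. The 24 member window pairs gave no call under any of the fits run, and the unchanged counts of member calls are among the 113. Leaving out either limb replicate could not move limb observed over expected, ratio or interaction frequency beyond the spread. That spread was the SD of the same replicates, which is always larger than the shift. These limb settings are among the 113, and they do not show stability. No paired analysis was possible because the labels give limb, body and head no shared replicate numbers. The mean log2 ratio of the 5′-end window to the gene window, 0.30 as reported, was -0.0288 with balanced primers and isolated contacts removed and -0.15 over reverse bait fragments alone. The cause was not tested.

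Within single tissues the ratio went to the other side of 1 in 7 of 37 settings, 3 in limb, 4 in body and 0 in head. It was 1.21 in limb with a cap or with isolated contacts removed. It was 0.998 in limb with balanced primers alone, and 0.908 in limb and 1.20 in head when isolated contacts were removed too. As a ratio of medians it was 1.86 in limb, with body at 1.80 and head at 1.92. With bait fragments divided by the annotated gene it was 1.35 in limb and 1.05 in body, and at matched separations 1.04 in body, so the body value below 1 did not hold in these settings. Forward bait fragments alone gave 1.51, 1.52 and 1.75, and reverse ones 0.986, 0.607 and 1.13, in limb, body and head.

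The mean observed over expected was 0.845 in limb and 0.836 in head with a cap, 0.916 and 0.994 with balanced primers alone, 0.948 and 1.06 with isolated contacts removed as well, and 0.824 in head with these removed alone. Medians over pairs were 0.484, 0.599 and 0.458 in limb, body and head. The interaction frequency was 0.0187 in head per read of the *Shh* region, and 0.0209 in limb and 0.0205 in head without the isolated contacts in the total. Body stayed within its Wilson interval in both settings. Without the isolated contacts body was thus further below the limb mean than with all reads counted. Medians were 0.0134, 0.0114 and 0.0116, and single head libraries gave 0.0162 to 0.0201. The peak count of 0 became 1 at a threshold of 1.5, and ranged from 0 to 1 over the libraries left out, being 1 (fragment 254) without limb replicate 2.

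Over all window pairs, calls in limb over body were 91, with 1 among primer pairs and 224 among fragment sums. In limb over head DESeq2 called 4, and calls ranged from 0 to 2 when a head library was left out, with 2 without head replicate 1. In limb against body and head together they ranged from 0 to 1, with 1 without limb replicate 2. Members with no reads in a library, not detectable at that depth, ranged from 10.3% in body to 45.0% in head replicate 2, and were 26.7% in limb replicate 1, which had the fewest reads.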
